A study of Mus musculus with 21 samples.

Results

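The genes that make serine and run the folate one-carbon cycle were followed in cultured mouse embryonic stem cells (ESCs), a pluripotent cell type of the early embryo. The group was chosen by name and holds 10 genes, Phgdh, Psat1, Psph, Shmt1, Shmt2, Mthfd1, Mthfd2, Mthfd1l, Aldh1l2 and Gldc, out of 40838 genes in each of 2 deposited count tables. All 10 were found in both tables, and all 10 had enough reads to be tested. Poly(A) RNA was sequenced from 21 libraries in 8 groups, all kept for 48 h in medium with 0.2 mM pyruvate and 10% dialyzed serum. In the first table the cells carried LbNOX (3 libraries), a bacterial enzyme that turns NADH into NAD+, or an empty vector (3 libraries), both in SL medium. In the second table SLC16A1 clone 2, SLC16A1 clone 1 and a line called chr8A were each grown in SL2i medium (2 libraries a line) and in SL medium (3 libraries a line). SL is taken here to mean serum plus LIF (leukemia inhibitory factor), SL2i the same with inhibitors of GSK3B and MEK, and chr8A the control line. These readings follow common use of the names, which the labels do not spell out. Each SLC16A1 line is 1 clone, and the labels do not say how its gene was changed, nor which promoter drives LbNOX. Nothing says that replicates came from separate cultures. The p-values therefore reflect only the spread among libraries within groups, and that spread may be technical. In the second table the estimate of that spread is shared over all 15 libraries, so SL2i comparisons lean on the SL groups too.

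Serine is made from the glycolytic intermediate 3-phosphoglycerate. Phgdh oxidizes it and reduces NAD+ to NADH, Psat1 adds the amino group from glutamate, and Psph removes the phosphate. Serine hydroxymethyltransferases, Shmt1 in the cytosol and Shmt2 in mitochondria, then split serine into glycine and a one-carbon unit that folate carries. In mitochondria Mthfd2 oxidizes that unit with NAD+, Mthfd1l releases it as formate for export, and Aldh1l2 can oxidize it to carbon dioxide with NADP+. In the cytosol Mthfd1, a single protein with several activities, uses formate to rebuild the folate-bound units for purine and thymidylate synthesis. Gldc is the decarboxylating subunit of the mitochondrial glycine cleavage system, which also yields a one-carbon unit. Several of these genes are known targets of ATF4, the transcription factor of the integrated stress response. Mouse ESCs are known to draw much of their glycine and one-carbon supply from threonine, through the dehydrogenase Tdh.

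Depth was 16521594 to 30008895 counts a library in the LbNOX table. In the second table SL2i libraries held 9784408 to 10908368 counts and SL libraries 15802072 to 30145771. Slc16a1 encodes the pyruvate and lactate carrier MCT1, and the clones had less of its transcript than chr8A (log2 fold changes of -1.04 in clone 2 and -0.40 in clone 1 in SL2i, and -1.08 in clone 2 and -0.21 in clone 1 in SL). The 10 pluripotency markers, Pou5f1 among them, all had reads in every group. Their summed level was 4324 to 5116 CPM (counts scaled to a common library size) in SL libraries of both tables, so the cells carried the transcripts of their labelled type. Vector replicate 2 and LbNOX replicate 3 stood apart from the other libraries of their groups for many of the 10 genes. So did SL chr8A replicate 3 for Mthfd2, and results that rest on these libraries are given with and without them. Over genes with enough reads, SL chr8A replicates 1 and 3 differed most of any 2 libraries of a group. Their counts gave a chi-square of 14.0 per degree of freedom, against 10.6 for LbNOX replicates 2 and 3, the next pair. Reads of Phgdh are uncertain in origin, since 56.8% of its 30-base words occur in transcripts of other genes, mostly pseudogenes. Exons on the opposite strand overlap 14.1% of the exon bases of Aldh1l2 and 10.4% of those of Psph, where they belong to the highly transcribed Cct6a. The strand setting of the counting is unknown, so some of those reads may belong to the neighbour.

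The 10 transcripts spanned a wide range of levels, which were compared between genes as CPM per kilobase of the gene length given in the tables. The order depends on that length: Gldc has 3785 bases there and 6091 annotated exon bases on GRCm38.p6, Psat1 6229 and 4254, and Mthfd1l 9284 and 4435. With the tables' lengths Gldc stood highest in all 5 SL groups, at 189 ± 3.40 CPM per kilobase with LbNOX and 193 ± 3.04 with vector (mean ± SD, n = 3 each), 132 ± 2.32 in clone 2, 129 ± 1.79 in clone 1 and 150.2 ± 2.57 in chr8A (n = 3 each). In SL2i it was no longer first: Mthfd1 led in clone 2 at 108 ± 1.93 and in clone 1 at 109 ± 0.701, and Shmt2 led in chr8A at 123 ± 7.87 (n = 2 each). In SL2i Gldc had rank 4 in clones 2 and 1, at 48.3 ± 1.41 and 49.2 ± 0.999, and rank 6 in chr8A, at 43.7 ± 0.191. Aldh1l2 was last in all 8 groups, with 0.889 to 1.41 CPM per kilobase. Psph and Mthfd1l came next in rank but were far higher, with 10.4 to 21.7. With the annotated exon bases, an alternative added after the data were seen, Psat1 led in all 5 SL groups (165 ± 1.86 in chr8A, where Gldc had 93.3 ± 1.59 and rank 3), and Mthfd1 led in all 3 SL2i groups. Mthfd1l then stood at rank 7 in all 5 SL groups, at 41.6 ± 0.594 in chr8A, and Aldh1l2 was still last in all 8 groups. Some neighbours in this order too were closer than the sum of their SDs. Among them were Mthfd1 (91.9 ± 1.32) and Shmt2 (91.2 ± 5.83) in SL2i chr8A. Others were Mthfd1l and Mthfd2 with LbNOX (41.5 ± 1.80 and 41.1 ± 5.20) and with vector (42.6 ± 0.425 and 41.1 ± 4.45). With the tables' lengths several neighbours in the order were closer than the sum of their SDs. In chr8A these were Psat1 (58.6 ± 1.24), Shmt1 (58.3 ± 2.72) and Phgdh (57.2 ± 0.346) and, lower down, Psph (13.2 ± 0.272) and Mthfd1l (13.0 ± 0.391) in SL2i, and Phgdh (75.5 ± 1.87) and Mthfd2 (72.2 ± 5.47) in SL. In the clones they were Gldc and Psat1 as well as Mthfd1l and Psph (clone 2) and Phgdh and Mthfd2 (clone 1) in SL2i, and Mthfd2 and Phgdh in SL. With LbNOX and with vector, Shmt2 and Psat1 could not be ordered, nor could Shmt1, Mthfd2 and Phgdh.

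**Figure D1:**
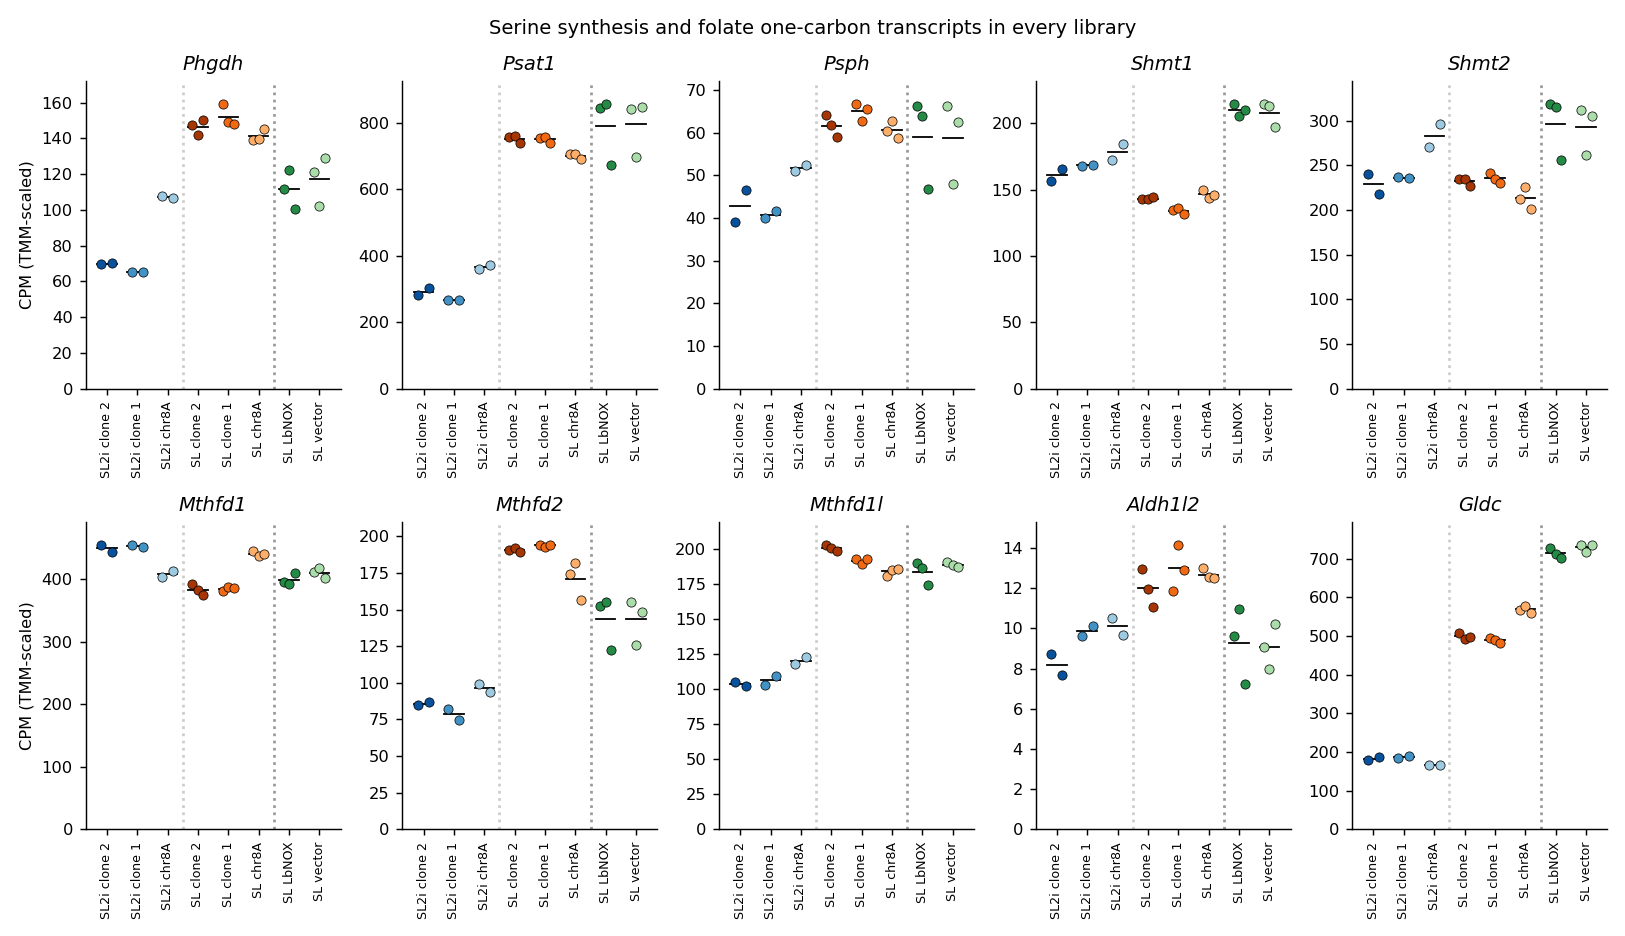
Level of each of the 10 transcripts (CPM, TMM-scaled within each table, axis from 0) in all 21 libraries; each point is 1 library, the bar is the group mean, and dotted lines separate SL2i from SL groups and the 2 tables. Gldc, Psat1, Mthfd2 and Mthfd1l lie far lower in the SL2i groups than in the SL groups. In SL2i both clones lie wholly below chr8A for 7 of the 10 genes and wholly above it for 2. Over all genes tested these shares were 20.5% and 19.2%.

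Promoters are shown for the 4 genes with the widest falls in SL2i in the clones (Psat1, Mthfd2, Gldc and Phgdh), and for Shmt2, which rose in chr8A. RefSeq windows on GRCm38.p6, while the authors used the later GRCm39, were found for 9 of the 10 genes, all but Aldh1l2. The 250 bases before an annotated start were read, and that start is not always the outermost one of the gene. The windows of Mthfd2 (gene span 83305704 to 83326011) and Mthfd1 lie inside the annotated span of their gene. Those of Psph and Mthfd1l overlap it in part. The motifs searched on both strands were the CCAAT box (CCAAT), the GC box (GGGCGG), the E-box (CACGTG) and the core of the composite site bound by ATF4 with C/EBP factors (TGATGNAA). CCAAT was found upstream of 7 of the 9 genes, against 33.8% of 32851 windows of the same length, and GGGCGG upstream of 6 of the 9, against 32.7%. The background is per window, while a gene was counted if any of its windows matched. Psat1 entered the GGGCGG count only through a further start. Bases inside annotated exons were included in these counts, though the sequences below leave them out. CACGTG and TGATGNAA were found in 0 of the 9, against 6.02% and 3.45% of all windows. Matched letters are in capitals, each sequence reads 5′ to 3′ toward the start, and bases inside annotated exons are left out.
Psat1, chr19:15925060-15925309, minus strand: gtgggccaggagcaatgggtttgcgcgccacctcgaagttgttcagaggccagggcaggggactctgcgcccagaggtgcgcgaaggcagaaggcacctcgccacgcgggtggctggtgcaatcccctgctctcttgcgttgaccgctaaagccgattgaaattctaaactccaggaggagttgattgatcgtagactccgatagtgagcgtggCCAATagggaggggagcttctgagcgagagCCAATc
Mthfd2, chr6:83317607-83317854, minus strand: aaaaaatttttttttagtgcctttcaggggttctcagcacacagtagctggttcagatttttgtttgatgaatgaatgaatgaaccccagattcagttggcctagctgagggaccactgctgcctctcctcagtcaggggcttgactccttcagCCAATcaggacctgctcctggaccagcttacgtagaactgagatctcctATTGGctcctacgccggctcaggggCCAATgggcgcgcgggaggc
Gldc, chr19:30175442-30175691, minus strand: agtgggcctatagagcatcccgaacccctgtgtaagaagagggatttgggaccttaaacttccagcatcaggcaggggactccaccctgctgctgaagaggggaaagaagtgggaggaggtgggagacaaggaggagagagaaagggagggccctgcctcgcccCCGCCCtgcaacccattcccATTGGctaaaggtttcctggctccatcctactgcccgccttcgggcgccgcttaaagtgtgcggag
Phgdh, chr3:98339991-98340219, minus strand: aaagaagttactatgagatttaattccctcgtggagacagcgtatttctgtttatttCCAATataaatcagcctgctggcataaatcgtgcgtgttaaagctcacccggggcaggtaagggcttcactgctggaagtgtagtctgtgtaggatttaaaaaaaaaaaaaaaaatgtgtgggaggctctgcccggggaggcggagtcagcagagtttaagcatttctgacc
Shmt2, chr10:127522445-127522694, minus strand: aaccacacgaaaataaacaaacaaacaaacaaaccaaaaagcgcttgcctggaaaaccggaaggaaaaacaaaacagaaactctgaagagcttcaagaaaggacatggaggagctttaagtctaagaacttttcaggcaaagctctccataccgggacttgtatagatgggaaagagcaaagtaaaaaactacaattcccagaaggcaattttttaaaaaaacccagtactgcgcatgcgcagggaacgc
Psat1 and Mthfd2 had 2 and 3 CCAAT matches, Gldc had 1 CCAAT and 1 GGGCGG match, Phgdh had 2 CCAAT matches of which 1 is cut off here by an exon, and Shmt2 had none. A further annotated start of Psat1 had 1 GGGCGG match and no CCAAT match. No match overlapped another except 2 GGGCGG matches of Shmt1. A match is a stretch of letters, and no binding was measured at any of them.

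The LbNOX groups ask what an added NADH oxidase does to these transcripts. None of the 10 differed between the groups beyond the spread of their libraries. The quasi-likelihood test of edgeR, with p-values adjusted over all genes by Benjamini-Hochberg, called 0 of the 10 at an adjusted p under 0.05, against 0.0372% of the 16119 genes tested, and 0 of the 10 had an unadjusted p under 0.05. DESeq2 also called 0. The log2 fold changes ran from -0.07 ± 0.093 (SE) for Phgdh to 0.03 ± 0.15 for Aldh1l2, with a median of -0.0045 over the 10 and of -9.5e-06 over all genes tested. Psat1 had 843, 857 and 674 CPM in LbNOX replicates 1 to 3, against 843, 697 and 847 CPM in vector replicates 1 to 3. In each group 2 libraries lay close together and 1 lay well below them.

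The low library was the same one for most of the genes. LbNOX replicate 3 held the lowest LbNOX value of 8 of the 10 genes, all but Mthfd1 and Shmt1. Vector replicate 2 held the lowest vector value of 7 of the 10, all but Mthfd1, Shmt1 and Mthfd1l. Of all genes tested, 39% had their lowest LbNOX value in LbNOX replicate 3 and 36.5% their lowest vector value in vector replicate 2. Psph, the phosphatase of the last serine step, had 66.3, 64.0 and 46.8 CPM with LbNOX and 66.2, 47.9 and 62.5 CPM with vector. Mthfd2 had 152, 155 and 122 CPM with LbNOX and 155, 126 and 149 CPM with vector. Shmt2 had 319, 316 and 256 CPM with LbNOX and 312, 262 and 305 CPM with vector. These 3 genes and Psat1 therefore dropped in 1 library of each group by more than the other 2 differed. Mthfd1, the cytosolic enzyme, did not share this pattern, with 395, 393 and 409.7 CPM with LbNOX and 411, 418 and 402 CPM with vector. Of 16 genes of the ATF4 list, 11 also had their lowest LbNOX value in LbNOX replicate 3 and 12 their lowest vector value in vector replicate 2. Of the 6 glycine cleavage partners tested, 6 were lowest in LbNOX replicate 3 and 3 in vector replicate 2, and of the 9 methionine cycle genes tested, 3 and 3 were. Asns, the asparagine synthetase that ATF4 is known to induce, had 309.8, 316 and 209.7 CPM with LbNOX and 325, 226 and 310.2 CPM with vector. Chac1, a glutathione-degrading enzyme of the same list, had 26.4, 28.0 and 15.9 CPM with LbNOX and 28.4, 15.6 and 26.8 CPM with vector. With both low libraries left out, 0 of the 10 were called, and Psat1 had a log2 fold change of 0.01 ± 0.033 and Phgdh one of -0.09 ± 0.048.

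**Figure D2:**
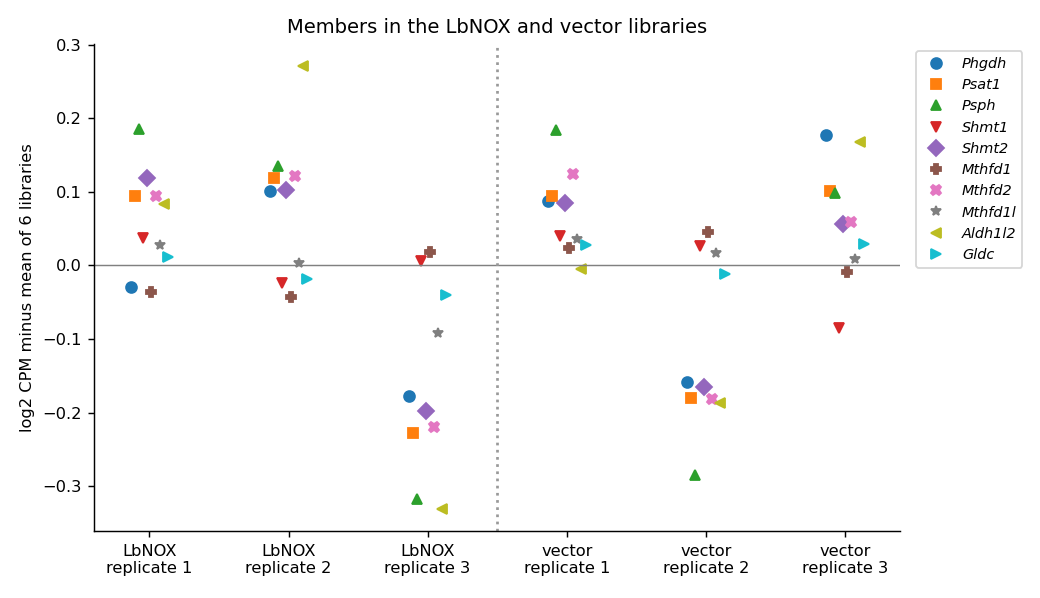
Log2 CPM of each of the 10 transcripts minus its mean over the 6 libraries of the LbNOX table, by library; each symbol is 1 gene. LbNOX replicate 3 and vector replicate 2 hold the low values of Psat1, Psph, Phgdh, Shmt2, Mthfd2 and Aldh1l2, while Mthfd1, Shmt1 and Gldc stay nearer to 0 in those libraries.

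SL2i, read here as SL with the inhibitors, and SL were compared within each line of the second table. Every SL2i library was shallower than every SL library. The medium cannot be told apart from other differences between these 2 sets of libraries. Most of the 10 were lower in SL2i, with Gldc, Psat1 and Mthfd2 lowest relative to SL, while the cytosolic Shmt1 was higher in all 3 lines. In clone 2, 9 of the 10 were called (2 higher, 7 lower), against 73.1% of 17178 genes tested (35.8% higher, 37.2% lower). In clone 1, 9 were called (2 higher, 7 lower), against 73% (35.9% higher, 37.1% lower). In chr8A all 10 were called (2 higher, 8 lower), against 72.8% (36.1% higher, 36.8% lower). The number of calls lay near that background and says little about these 10 genes. The median log2 fold change of the 10 was -0.74 in clone 2, -0.76 in clone 1 and -0.36 in chr8A, beside medians over all genes of -0.0072, -0.0025 and 0.00088.

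The serine synthesis genes were lower in SL2i in every line. Psat1 had 280.2 and 304 CPM in SL2i against 756, 762 and 738 CPM in SL in clone 2. It had 268 and 265 CPM in SL2i against 756, 756 and 738 CPM in SL in clone 1, and 359.7 and 371 CPM in SL2i against 705, 705 and 691 CPM in SL in chr8A. No SL2i library reached any SL library of its line, as was so for 41.4%, 41.2% and 40.9% of all genes in clone 2, clone 1 and chr8A, and the log2 fold changes were -1.36 ± 0.034 in clone 2, -1.49 ± 0.034 in clone 1 and -0.94 ± 0.033 in chr8A. Phgdh, the dehydrogenase that opens the pathway, had 69.6 and 70.0 CPM in SL2i against 147, 142 and 150.3 CPM in SL in clone 2. It had 65.3 and 65.3 CPM in SL2i against 159, 149 and 148 CPM in SL in clone 1, and 107 and 107 CPM in SL2i against 139, 139.7 and 145 CPM in SL in chr8A. Its fall was -1.07 ± 0.047 and -1.22 ± 0.049 on the log2 scale in clones 2 and 1, and -0.40 ± 0.044 in chr8A, with the caution on shared sequence given above. Psph had 39.0 to 52.5 CPM over the SL2i libraries and 58.7 to 66.8 CPM over the SL libraries. Its log2 fold changes were -0.52 ± 0.063 in clone 2, -0.67 ± 0.066 in clone 1 and -0.23 ± 0.061 in chr8A (adjusted p = 3.5e-12, 1.7e-16 and 0.00053, edgeR).

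The mitochondrial folate genes split. Mthfd2, the NAD+-dependent dehydrogenase, had 85.0 and 86.7 CPM in SL2i against 191, 192 and 189.5 CPM in SL in clone 2. It had 82.4 and 74.7 CPM in SL2i against 194, 193 and 194 CPM in SL in clone 1, and 99.0 and 93.4 CPM in SL2i against 174, 182 and 157 CPM in SL in chr8A. All SL2i values lay below all SL values, with log2 fold changes of -1.15 ± 0.047, -1.30 ± 0.049 and -0.83 ± 0.046 in clone 2, clone 1 and chr8A. Mthfd1l, the formate-releasing enzyme, was 1.94-fold, 1.80-fold and 1.53-fold lower in SL2i in clone 2, clone 1 and chr8A. Shmt2 had 239.8 and 218 CPM in SL2i against 234, 235 and 227 CPM in SL in clone 2, and 237 and 236 CPM in SL2i against 242, 235 and 230.2 CPM in SL in clone 1. The groups overlapped in both clones (log2 fold changes of -0.02 ± 0.040 and 0.0039 ± 0.040, adjusted p = 0.65 and 0.94). In chr8A Shmt2 was higher in SL2i, with 271 and 296 CPM against 212, 225 and 202 CPM in SL (0.41 ± 0.039). Aldh1l2, the weakest of the 10, was lower in SL2i too (-0.54 ± 0.13 in clone 2, -0.39 ± 0.13 in clone 1 and -0.33 ± 0.13 in chr8A, log2). Its call ended in clone 1 without SL2i clone 1 replicate 1 (adjusted p = 0.053) and in chr8A without SL2i chr8A replicate 2 (adjusted p = 0.12).

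The cytosolic Shmt1 and Mthfd1 moved little, and not downward throughout. Shmt1 had 157 and 165 CPM in SL2i against 143, 143 and 144 CPM in SL in clone 2, 168 and 169 CPM in SL2i against 134, 136 and 132 CPM in SL in clone 1, and 172 and 184 CPM in SL2i against 149.6, 144 and 146 CPM in SL in chr8A. Its rise was 0.17 ± 0.039, 0.33 ± 0.040 and 0.28 ± 0.039 in clone 2, clone 1 and chr8A. Mthfd1 had 455 and 443 CPM in SL2i against 392, 382 and 374 CPM in SL in clone 2, and 455 and 451 CPM in SL2i against 380.2, 387 and 386 CPM in SL in clone 1. In chr8A it went the other way, with 404 and 412 CPM in SL2i against 445, 437 and 440.3 CPM in SL. The log2 fold changes of Mthfd1 were 0.23 ± 0.031, 0.24 ± 0.032 and -0.11 ± 0.032 in clone 2, clone 1 and chr8A. Gldc, of the mitochondrial glycine cleavage system, showed the widest gap between media in chr8A. It had 166 and 165 CPM in SL2i against 568, 578 and 559 CPM in SL, 3.43-fold lower in SL2i. In clone 2 it had 179 and 187 CPM in SL2i against 508, 491 and 496 CPM in SL, and in clone 1 it had 183 and 189 CPM in SL2i against 496, 489 and 482 CPM in SL, 2.73-fold and 2.63-fold lower in SL2i.

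Summed levels of markers of other cell types and states differed between the media too. The summed level of 6 markers of the formative or primed epiblast was 162 to 262 CPM in SL2i libraries and 1264 to 1605 CPM in SL libraries, with T at 0 in every group. The 10 pluripotency markers summed to 7545 to 8188 CPM in SL2i and 4324 to 4596 CPM in SL. The 10 fibroblast markers summed to 9.29 to 11.2 CPM in SL2i and 36.9 to 48.9 CPM in SL. Col3a1, Dcn, Fap and Postn had no read in any SL2i group, and Fap had none in any SL group of this table. The 7 primitive endoderm markers summed to 5.41 to 10.5 CPM in SL2i and 20.6 to 25.8 CPM in SL, and the 6 trophoblast markers to 54.2 to 63.8 CPM in SL2i and 75.6 to 99.4 CPM in SL. Such sums mostly follow the most abundant gene of a list. In vector libraries of the first table Dnmt3b averaged 832 CPM, where the epiblast markers summed to 995 to 1141 CPM. Tfap2c averaged 53.1 CPM there, where the trophoblast markers summed to 64.2 to 77.3 CPM. The sums do not show how each marker moved. The part of these markers, and of the lower depth of the SL2i libraries, in the fold changes between media was not tested. With every library thinned to 9784408 counts, a setting added after the data were seen, 9, 8 and 10 of the 10 genes were still called in clone 2, clone 1 and chr8A. In bulk RNA, fewer cells of a type and less RNA per cell cannot be told apart.

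**Figure D3:**
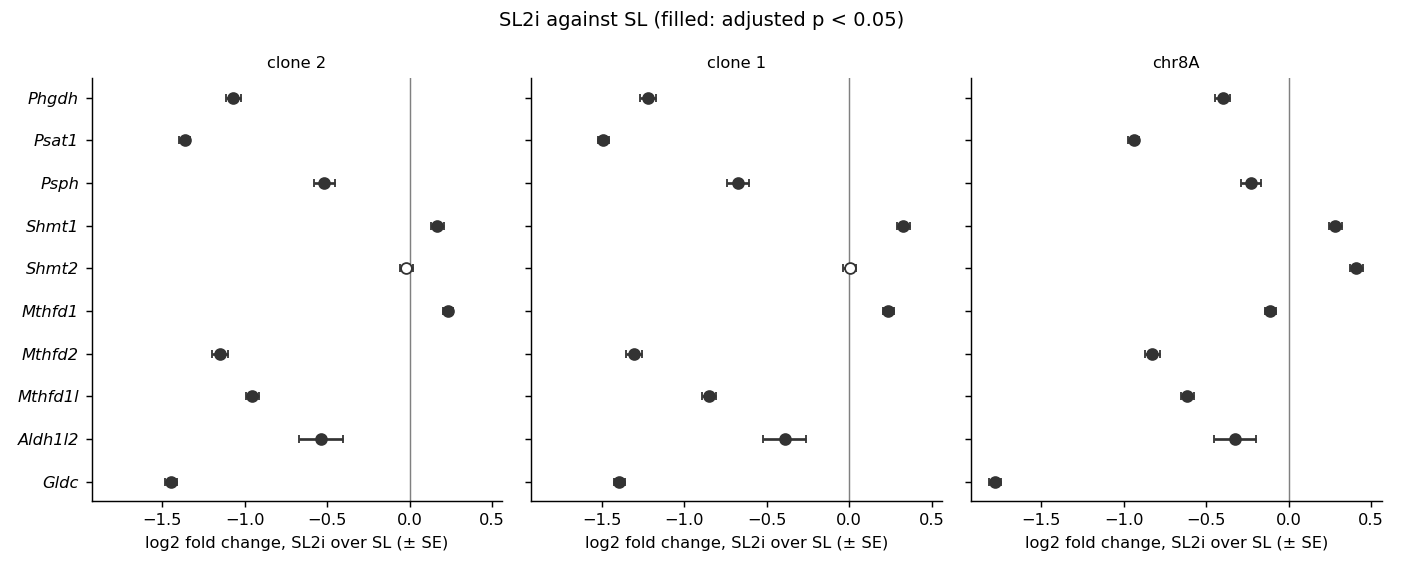
Log2 fold change of SL2i over SL with its standard error for each of the 10 genes, in clone 2, clone 1 and chr8A; filled points passed at an adjusted p under 0.05. Psat1, Phgdh, Mthfd2, Mthfd1l and Gldc lie left of 0 in every line, Shmt1 lies right of 0 in every line, and Shmt2 lies right of 0 in chr8A and at 0 in the clones.

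The SLC16A1 clones were compared with chr8A in SL to see which transcripts differ between the lines. Each SLC16A1 line is 1 clone, so an effect of the gene and other differences between the lines cannot be told apart. The differences were small, at most 1.16-fold, and ran in both directions. In clone 2, 6 of the 10 were called (4 higher, 2 lower), against 26.9% of all genes (14.3% higher, 12.6% lower). In clone 1, 7 were called (4 higher, 3 lower), against 16.6% (8.83% higher, 7.77% lower). The median log2 fold change of the 10 was 0.03 in clone 2 and 0.08 in clone 1, beside -0.00032 and -0.00096 over all genes.

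Psat1, Shmt2 and Mthfd2 were higher in both clones. Psat1 had 756, 762 and 738 CPM in clone 2 and 756, 756 and 738 CPM in clone 1, against 705, 705 and 691 CPM in chr8A (0.10 ± 0.027 in either clone). Mthfd2 had 191, 192 and 189.5 CPM in clone 2 and 194, 193 and 194 CPM in clone 1, against 174, 182 and 157 CPM in chr8A (0.16 ± 0.034 and 0.18 ± 0.035). The clone libraries lay close together and chr8A replicate 3 lay below the other chr8A libraries. Without chr8A replicate 3 the clone 2 calls of Mthfd2 (0.09, adjusted p = 0.054) and Shmt2 (0.07, adjusted p = 0.12) ended, and that of Shmt2 also ended without SL clone 2 replicate 2 (0.10, adjusted p = 0.051). Phgdh was called in clone 1, at 0.11 ± 0.034, and had 0.05 ± 0.033 in clone 2. The clone 1 call of Phgdh ended without SL clone 1 replicate 1 (adjusted p = 0.25), SL chr8A replicate 1 (0.076) or SL chr8A replicate 2 (0.078). Mthfd1l was called in clone 2, at 0.12 ± 0.030, and had 0.06 ± 0.031 in clone 1. Set directly against each other in SL, clone 2 and clone 1 differed by -0.05 ± 0.034 for Phgdh and 0.07 ± 0.031 for Mthfd1l (adjusted p = 0.45 and 0.26, edgeR).

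Mthfd1 and Gldc were lower in both clones. Mthfd1 had 392, 382 and 374 CPM in clone 2 and 380.2, 387 and 386 CPM in clone 1, against 445, 437 and 440.3 CPM in chr8A (-0.20 ± 0.027 in either clone). Gldc had 508, 491 and 496 CPM in clone 2 and 496, 489 and 482 CPM in clone 1, against 568, 578 and 559 CPM in chr8A (-0.19 ± 0.027 and -0.22 ± 0.027). No clone library of these 2 genes reached a chr8A library, which held for 9.84% of all genes. Shmt1 was lower in clone 1 (-0.13 ± 0.033) and overlapped chr8A in clone 2 (-0.03 ± 0.032). Psph and Aldh1l2 were not called in either clone. At equal depth 3 of the 10 genes in clone 2 and 4 in clone 1 were called. Over all genes the calls fell too, to 2254 (clone 2) and 1208 (clone 1) of 16050 tested, from 4618 and 2850 of 17178. The calls of Psat1 in both clones, Shmt2 and Mthfd1l in clone 2, and Phgdh and Shmt1 in clone 1 ended at equal depth.

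In SL2i most of the serine and mitochondrial genes were lower in the clones than in chr8A. In clone 2, 9 of the 10 were called (2 higher, 7 lower), against 20.6% of all genes (9.74% higher, 10.8% lower). In clone 1, 8 were called (2 higher, 6 lower), against 22.4% (10.4% higher, 12.1% lower). The median log2 fold change of the 10 was -0.24 in clone 2 and -0.22 in clone 1, beside -0.0021 and -0.0036 over all genes. Phgdh showed the widest difference, with 69.6 and 70.0 CPM in clone 2 and 65.3 and 65.3 CPM in clone 1, against 107 and 107 CPM in chr8A. It was 1.53-fold lower in clone 2 and 1.64-fold lower in clone 1 (adjusted p = 1.6e-16 and 1.8e-19, edgeR). Psat1 had 280.2 and 304 CPM in clone 2 and 268 and 265 CPM in clone 1, against 359.7 and 371 CPM in chr8A (-0.32 ± 0.037 and -0.45 ± 0.038). Psph completed the pathway, with 39.0 and 46.7 CPM in clone 2 and 39.9 and 41.6 CPM in clone 1, against 51.0 and 52.5 CPM in chr8A (-0.27 ± 0.077 and -0.34 ± 0.078). For all 3 serine synthesis genes each SL2i clone library lay under each SL2i chr8A library. With 2 libraries a group this was common, at 20.5% of all genes tested.

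Shmt2 had 239.8 and 218 CPM in clone 2 and 237 and 236 CPM in clone 1, against 271 and 296 CPM in chr8A (-0.31 ± 0.045 and -0.26 ± 0.045). Mthfd2 had 85.0 and 86.7 CPM in clone 2 and 82.4 and 74.7 CPM in clone 1, against 99.0 and 93.4 CPM in chr8A (-0.17 ± 0.058 and -0.29 ± 0.059). Mthfd1l had 105 and 103 CPM in clone 2 and 103 and 109.8 CPM in clone 1, against 118 and 123 CPM in chr8A (-0.21 ± 0.049 and -0.17 ± 0.049). All 3 of these transcripts, which serve the mitochondrial path from serine to formate, were thus lower in both clones. Mthfd1 was higher in both clones (0.14 ± 0.035 and 0.15 ± 0.036), and so was Gldc (0.14 ± 0.041 and 0.17 ± 0.041). Shmt1 was called in clone 2 at -0.15 ± 0.045 and stood at -0.08 ± 0.045 in clone 1. Aldh1l2 stood at -0.30 ± 0.17 and -0.03 ± 0.16 and passed in neither. With 2 libraries a group some calls rested on a single one. In clone 2 the count was 6 to 8 with 1 library left out, and without SL2i clone 2 replicate 1 the calls of Psph (adjusted p = 0.29), Shmt1 (0.17) and Mthfd2 (0.16) ended. Without SL2i clone 2 replicate 2 those of Gldc (0.10) and Mthfd2 (0.10) ended, without SL2i chr8A replicate 2 those of Psph (0.054) and Shmt1 (0.25), and without SL2i chr8A replicate 1 that of Mthfd2 (0.30). In clone 1 the call of Mthfd1l ended without SL2i clone 1 replicate 1 (adjusted p = 0.15) or SL2i chr8A replicate 2 (0.11). Mthfd2 in clone 2 was also not called by DESeq2 (adjusted p = 0.071), with only the groups compared fitted (0.055) or at equal depth (0.053).

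**Figure D4:**
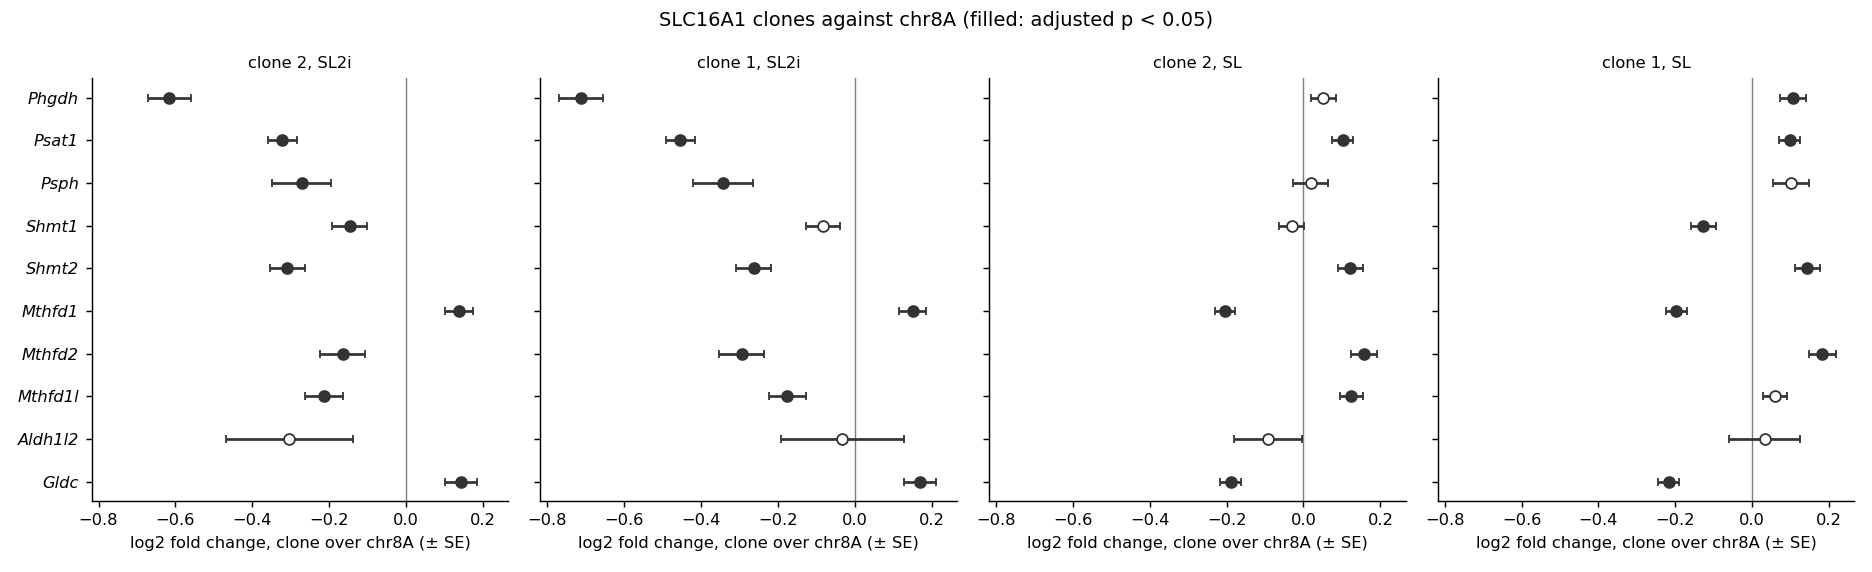
Log2 fold change of each SLC16A1 clone over chr8A with its standard error for the 10 genes, in SL2i (left pair) and SL (right pair); filled points passed at an adjusted p under 0.05. Phgdh, Psat1, Psph, Shmt2, Mthfd2 and Mthfd1l lie left of 0 in SL2i and at or right of 0 in SL, while Mthfd1 and Gldc do the reverse.

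Whether the effect of the medium differed between a clone and chr8A was tested as an interaction, the SL2i over SL log2 fold change in a clone minus that in chr8A. In clone 2, 8 of the 10 genes were called (2 higher, 6 lower), against 16.9% of all genes (7.69% higher, 9.18% lower). In clone 1, 8 were called (2 higher, 6 lower), against 17% (7.78% higher, 9.24% lower). They were the same 8 genes. Phgdh had -0.67 ± 0.065 in clone 2 and -0.82 ± 0.067 in clone 1, Psat1 had -0.42 ± 0.046 and -0.55 ± 0.047, and Shmt2 had -0.43 ± 0.056 and -0.41 ± 0.056. Mthfd2 had -0.32 ± 0.067 and -0.48 ± 0.069 in clones 2 and 1, Mthfd1l had -0.34 ± 0.058 and -0.23 ± 0.058, and Psph had -0.29 ± 0.089 and -0.44 ± 0.091. The positive interactions were Mthfd1, at 0.34 ± 0.045 and 0.35 ± 0.045, and Gldc, at 0.33 ± 0.049 and 0.39 ± 0.049. Shmt1 (-0.12 ± 0.055 and 0.04 ± 0.056) and Aldh1l2 (-0.21 ± 0.19 and -0.06 ± 0.18) passed in neither clone. The clones share the chr8A libraries, so their values are not independent of each other. The Psph call in clone 2 ended without SL2i clone 2 replicate 1 (adjusted p = 0.34) or SL2i chr8A replicate 2 (0.084), and the Mthfd1l call in clone 1 ended without SL2i clone 1 replicate 1 (0.058). Both also ended at equal depth (adjusted p = 0.22 and 0.16).

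Some summed marker levels differed between the clones and chr8A as well, while other ranges overlapped. The 6 formative or primed epiblast markers summed to 242 to 251 CPM in clone 2 and 242 to 262 CPM in clone 1, against 162 to 163 CPM in chr8A, in SL2i. In SL they summed to 1576 to 1605 CPM in clone 2 and 1460 to 1474 CPM in clone 1, against 1264 to 1306 CPM in chr8A. The 7 primitive endoderm markers summed to 8.71 to 10.4 CPM in clone 2 and 8.58 to 10.5 CPM in clone 1, against 5.41 to 6.02 CPM in chr8A, in SL2i. In SL they summed to 20.6 to 21.3 CPM in clone 2 and 22.6 to 23.3 CPM in clone 1, against 23.0 to 25.8 CPM in chr8A. The 6 trophoblast markers summed to 59.4 to 62.2 CPM in clone 2 and 63.3 to 63.8 CPM in clone 1, against 54.2 to 59.8 CPM in chr8A, in SL2i. In SL they summed to 82.6 to 85.6 CPM in clone 2 and 75.6 to 81.3 CPM in clone 1, against 92.1 to 99.4 CPM in chr8A. In SL2i the 10 pluripotency markers summed to 7777 to 7806 CPM (clone 2), 7545 to 7792 (clone 1) and 7836 to 8188 (chr8A). In SL they summed to 4478 to 4596, 4324 to 4334 and 4337 to 4582 CPM in the same order. The 10 fibroblast markers summed to 10.2 to 11.2, 9.29 to 9.36 and 10.2 to 10.8 CPM in SL2i, again in that order. In SL they summed to 36.9 to 43.5, 43.2 to 46.6 and 44.1 to 48.9 CPM. The part of all these markers in the clone differences was not tested.

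Clone 2 and clone 1 were then set against each other. In SL2i edgeR called 0 of the 10 genes, against 0.157% of all genes, with 2 at an unadjusted p under 0.05 and log2 fold changes of -0.27 to 0.13. In SL it called 0, against 4.4%, with 2 at an unadjusted p under 0.05 and log2 fold changes of -0.12 to 0.10. DESeq2 called 0 in each medium. In SL2i 1 gene, Psat1, was called without SL2i clone 2 replicate 1, and in SL 1 gene, Shmt1, was called when only the groups compared were fitted; both are named after their values were seen.

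The balance of mitochondrial over cytosolic enzymes was read within each library, as the log2 ratio of 2 genes' counts. This ratio does not depend on how libraries are scaled. Mthfd2 over Mthfd1 was -2.39 ± 0.047 in clone 2, -2.53 ± 0.091 in clone 1 and -2.08 ± 0.081 in chr8A in SL2i (mean ± SD, n = 2 each). In SL it was -1.01 ± 0.031 in clone 2, -0.99 ± 0.019 in clone 1 and -1.37 ± 0.11 in chr8A (n = 3 each). The clones thus lay below chr8A in SL2i and above it in SL, with no overlap of libraries in either medium. Such gaps were common among single genes. Both clones lay wholly below chr8A for 20.5% of genes and above it for 19.2% in SL2i. In SL these shares were 9.84% and 11.2%. The direction of the ratio follows from the changes of Mthfd2 and Mthfd1 given above. Mthfd1l over Mthfd1 was -2.11 ± 0.0012, -2.09 ± 0.072 and -1.76 ± 0.023 in clone 2, clone 1 and chr8A in SL2i, and -0.93 ± 0.017, -1.002 ± 0.029 and -1.26 ± 0.032 in SL. Here too the clones lay below chr8A in SL2i and above it in SL. Shmt2 over Shmt1 was 0.51 ± 0.15, 0.49 ± 0.0092 and 0.67 ± 0.025 in clone 2, clone 1 and chr8A in SL2i, and 0.70 ± 0.033, 0.81 ± 0.031 and 0.54 ± 0.099 in SL. With LbNOX and vector the ratio of Mthfd2 to Mthfd1 was -1.49 ± 0.22 and -1.52 ± 0.18 (n = 3 each), a difference well inside the spread. These ratios are given as descriptions, without a test of their own.

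**Figure D5:**
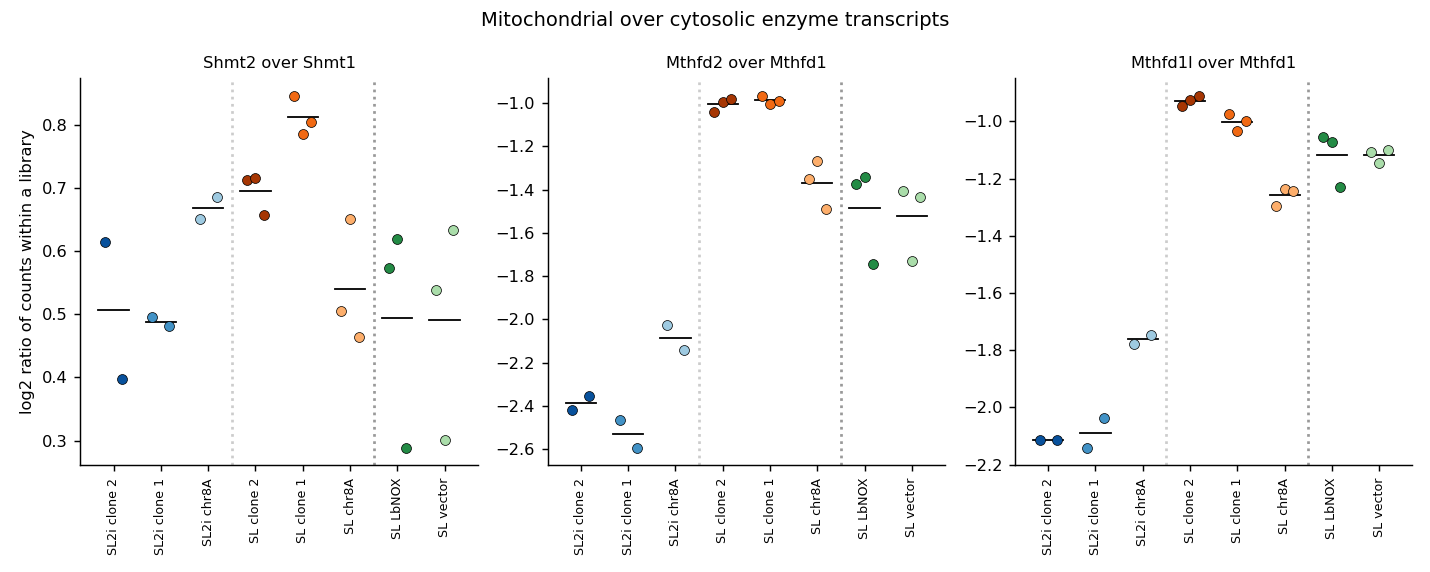
Log2 ratio of the counts of the mitochondrial over the cytosolic enzyme in every library, for Shmt2 over Shmt1, Mthfd2 over Mthfd1 and Mthfd1l over Mthfd1; points are libraries and bars group means. For both Mthfd ratios the clones lie below chr8A in SL2i and above it in SL, while LbNOX and vector libraries overlap.

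Other genes of folate metabolism, from lists chosen by function, did not all move with the 10. Between media the calls over all genes were 35.8% higher and 37.2% lower in clone 2, 35.9% and 37.1% in clone 1, and 36.1% and 36.8% in chr8A, and counts near these shares say little about a list. Mthfd2l, the mitochondrial relative of Mthfd2, was lower in SL2i, with 3.17 CPM against 13.3 CPM in SL in clone 2 and 1.91 CPM against 12.0 CPM in SL in chr8A (-2.07 ± 0.17 and -2.65 ± 0.19). Aldh1l1, the cytosolic counterpart of Aldh1l2, was higher in SL2i, with 21.3 CPM against 3.02 CPM in SL in clone 2 and 40.8 CPM against 4.21 CPM in SL in chr8A (2.79 ± 0.13 and 3.27 ± 0.11). Of the 30-base words of Aldh1l1, 11.4% occur in other genes. Of 12 other folate enzymes tested, 5 were higher and 4 lower in SL2i in each of the 3 lines, near those shares. The mitochondrial folate carrier Slc25a32 was lower in SL2i in each line (-0.58 ± 0.082 in clone 2, -0.55 ± 0.087 in clone 1 and -0.45 ± 0.084 in chr8A), and so was the mitochondrial serine carrier Sfxn1 (-0.63 ± 0.046, -0.65 ± 0.048 and -0.64 ± 0.047). Neither was called between a clone and chr8A in SL2i. Of 5 folate carriers, 2 were higher and 2 lower in SL2i in clone 2, 1 was higher and 3 lower in clone 1, and 1 was higher and 2 lower in chr8A, again near those shares. Of 10 genes of the methionine cycle, which uses folate-borne units for methylation, 6 were higher and 4 lower in clone 2, and 6 were higher and 2 lower in clone 1 and in chr8A (over all genes 73.1%, 73% and 72.8% were called in clone 2, clone 1 and chr8A). Between LbNOX and vector edgeR called 0 genes of any of these lists, with 1 gene, of the ATF4 list, at an unadjusted p under 0.05.

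The partners of Gldc in glycine cleavage moved in both directions. Amt, the aminomethyltransferase, was higher in SL2i by 1.06 ± 0.043 in clone 2, 1.20 ± 0.045 in clone 1 and 1.26 ± 0.044 in chr8A, and Gcsh, the lipoyl carrier protein, by 0.65 ± 0.041, 0.61 ± 0.042 and 0.67 ± 0.041, although 9.49% of the words of Gcsh occur in other genes. Dld, the dehydrogenase shared with pyruvate dehydrogenase, was lower in SL2i, as Gldc was (-0.39 ± 0.045, -0.58 ± 0.047 and -0.34 ± 0.045 in clone 2, clone 1 and chr8A, log2). Of the 6 partners tested, 3 were higher and 1 lower in SL2i in each line, a number of calls near the 72.8% to 73.1% of all genes. Tdh, the threonine dehydrogenase, was 2.02 ± 0.036, 2.20 ± 0.037 and 2.04 ± 0.036 higher on the log2 scale in SL2i in clone 2, clone 1 and chr8A, with 17.7% of its words shared with other genes. In chr8A that was 433 CPM in SL2i against 106 CPM in SL. Of 15 genes of serine and glycine transport and use, 9 were higher and 5 lower in SL2i in each line, against 35.8% to 36.1% higher and 36.8% to 37.2% lower over all genes.

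Atf4 and the genes it is known to induce were set beside the 10. Of 16 genes of that list, 2 were higher and 14 lower in SL2i in each line, with medians of -0.89 in clone 2, -0.91 in clone 1 and -0.74 in chr8A. Over all genes 37.2%, 37.1% and 36.8% were lower, with medians of -0.0072, -0.0025 and 0.00088. Asns was one of the 2 that were higher (1.49 ± 0.032, 1.28 ± 0.032 and 1.31 ± 0.032), opposite to Psat1 and Phgdh. In SL, 9 of the 16 were higher and 2 lower in clone 2, and 8 were higher and 0 lower in clone 1, against 14.3% higher and 12.6% lower (clone 2) and 8.83% higher and 7.77% lower (clone 1) over all genes, with Atf4 itself at 0.19 ± 0.028 and 0.16 ± 0.029. In SL2i, 2 were higher and 1 lower in clone 2, and 2 were higher and 2 lower in clone 1, near the 20.6% and 22.4% of all genes called. Atf4 was not called there (-0.09 ± 0.038 and -0.08 ± 0.038, adjusted p = 0.10 and 0.13), and its interactions were -0.28 ± 0.048 and -0.24 ± 0.048. Asns stood at 0.10 ± 0.035 in clone 2 and 0.00 ± 0.035 in clone 1 in SL2i, where Phgdh, Psat1 and Psph were all lower.

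Genes with the most similar profile were sought over the 15 libraries of the second table, as the smallest root mean square difference of centred log2 CPM, among 9929 genes. For Psat1, whose own log2 CPM varied with an SD of 0.66, the nearest were Atxn1l (0.05), Nectin3 (0.06) and Gtf2i (0.08), and the nearest of the 10 genes was Mthfd2 (0.11, rank 37). For Mthfd2 they were Kdm4c (0.08), Usp47 (0.08) and Cdh1 (0.08), with Psat1 at rank 38. For Phgdh they were Pls3 (0.08), Itga5 (0.11) and Klhl7 (0.11), with Mthfd1l at rank 69. Shmt2 was nearest to Cask (0.06), Rbfa (0.06) and Cdk7 (0.06), and Aldh1l2 to Cxxc5 (0.08), Prkx (0.10) and Fra10ac1 (0.10). The nearest of the 10 ranked 929 for Shmt2 and 613 for Aldh1l2. The libraries share their media and lines, which most genes follow.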

How the data were processed

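The 21 poly(A) RNA libraries of mouse ESCs were made with a stranded kit, per the labels' protocols. The authors deposited raw read counts per gene in 2 tables, and the submitters' processing notes name DRAGEN 3.10, featureCounts from Subread and the GRCm39 build; no strand setting is stated there. Each table was analysed separately, and 19 rows with a gene ID but no symbol were kept in. The counts were tested with edgeR 4.0.16 (quasi-likelihood, filterByExpr, TMM factors, limma 3.58.1, R 4.3.3) on all groups of a table, with p-values adjusted by Benjamini-Hochberg over all genes tested. The standard error was the log2 fold change divided by the root of the test's F. Levels are TMM-scaled CPM computed from the counts, and levels between genes are per kilobase of the tables' gene length. Aldh1l2, with the fewest counts of the 10, had the largest standard errors in the second table. The procedure was tested on simulated counts. DESeq2 1.42.0, other scaling, no filter, a replicate block, fits of the compared groups only, and leaving out each library were alternatives. Further settings were chosen after seeing the data: leaving out the 2 low LbNOX-table libraries, levels per annotated exon base, and thinning the second table to equal depth.

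The 10 genes and the other lists were chosen with earlier results of these data known, so they are no independent evidence. All 10 are described. Of the other lists, the genes named are ones fixed by name (Mthfd2l, Slc25a32, Sfxn1, Amt, Gcsh, Dld, Atf4, Asns, Slc16a1) or among the 3 with the widest called change in a list, and Chac1 in the LbNOX table was chosen after its values were seen. Promoters and exon overlaps were read from RefSeq and the reference annotation on GRCm38.p6, by gene ID, for which all 10 genes matched.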

Additional observations from a re-analysis of the deposited data

Results flagged for a closer look

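The effect of medium differed between a clone and chr8A for 8 of the 10 genes, by the interaction test of edgeR, adjusted over all genes, against 16.9% (clone 2) and 17% (clone 1) of all genes. In clone 2 the interactions were -0.67 for Phgdh, -0.42 for Psat1, -0.29 for Psph, -0.43 for Shmt2, -0.32 for Mthfd2, -0.34 for Mthfd1l, 0.34 for Mthfd1 and 0.33 for Gldc on the log2 scale. In clone 1 they were -0.82 for Phgdh, -0.55 for Psat1, -0.44 for Psph, -0.41 for Shmt2, -0.48 for Mthfd2, -0.23 for Mthfd1l, 0.35 for Mthfd1 and 0.39 for Gldc. Both clones are set against the same chr8A libraries.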

How the results depend on the processing

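With 1 library left out, the number of the 10 genes called was 9 in clone 2, 8 to 9 in clone 1 and 9 to 10 in chr8A between media. It was 4 to 6 in clone 2 and 6 to 7 in clone 1 against chr8A in SL, and 6 to 8 and 7 to 8 in SL2i. It was 7 to 8 for each interaction, 0 for LbNOX against vector, 0 for clone 2 against clone 1 in SL and 0 to 1 in SL2i. Fitting only the groups compared gave 1 for clone 2 against clone 1 in SL, and thinning to equal depth gave 3 in clone 2 and 4 in clone 1 against chr8A in SL.

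Directions turned only for values that had not been called. With 1 library left out, the log2 fold changes of LbNOX over vector ran from -0.108 to 0.188 for Aldh1l2, -0.0873 to 0.0995 for Mthfd2, -0.0947 to 0.0959 for Psat1, -0.128 to 0.142 for Psph, -0.0268 to 0.0354 for Shmt1 and -0.0566 to 0.114 for Shmt2. Those of Aldh1l2 in clone 1 ran from -0.0359 to 0.0958 in SL, from -0.0831 to 0.0378 in SL2i and from -0.12 to 0.011 for the interaction. Psph in clone 2 in SL ran from -0.0157 to 0.0440, and Shmt2 between media from -0.105 to 0.0413 in clone 2 and -0.0175 to 0.0177 in clone 1. Shmt2 in clone 1 between media also turned with DESeq2 (-0.0058), RLE factors (-0.0059), no filter (-0.0604) and the replicate block (-0.0196). With LbNOX, Psph turned with RLE factors (-0.0011), and Mthfd2 with no filter (0.0040). Without both low libraries Mthfd2 (0.0133) and Psat1 (0.0091) turned. At equal depth Aldh1l2 in clone 1 turned in SL (-0.222), SL2i (0.0258) and the interaction (0.248), as did Mthfd1l in clone 1 in SL (-0.0117) and Psph in clone 2 in SL (-0.0257). The cause was not tested.

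Over all genes, counts of calls moved by more than 1.5 times in these cases. LbNOX against vector gave 6, but 15 with DESeq2, 24 with no filter, 3 with the replicate block, 49 without both low libraries and 0 to 13 without 1 of the libraries whose omission moved it. Clone 2 against clone 1 gave 756 in SL, but 487 with DESeq2, 1223 with only the groups compared, 225 at equal depth, 371 and 491 without SL clone 2 replicate 3 and 1, and 393 and 468 without SL clone 1 replicate 1 and 3. In SL2i it gave 27, but 43 with DESeq2, 11 with only the groups compared, 13 at equal depth and 16 without SL2i clone 1 replicate 2. At equal depth clone 2 and clone 1 against chr8A in SL gave 2254 and 1208 in place of 4618 and 2850, and the interactions 1693 and 1761 in place of 2898 and 2925. Replicate numbers did not pair libraries. Same-number correlations of deviations from group means were -0.51 to 0.39 (3 pairs) in the LbNOX table and -0.07 to 0.11 (33 pairs) in the other. In neither table did every library correlate best with its own number. Different-number correlations in the LbNOX table ran from -0.60 to 0.69 (6 pairs). The highest was between vector replicate 2 and LbNOX replicate 3, the low libraries. The replicate block ended no call of the 10 genes. The SL2i groups hold 2 libraries each.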
